A study of Mus musculus with 12 samples.

Results

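The 10 genes described here encode enzymes of glycolysis, from phosphofructokinase to enolase, and of its branch to lactate: Aldoa, Pfkm, Gapdh, Tpi1, Pgk1, Pgam1, Pgam2, Eno3, Ldha and Ldhb. They were taken by symbol from an expression table of 13775 genes, and the list was chosen with earlier results of these data known. All 10 passed the filter on low values (at least 1 FPKM in at least 3 of 12 libraries), as did 4956 genes in all. FPKM is a read number divided by gene length and library depth, so levels of different genes can be set side by side.

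RNA was measured in muscle satellite cells (SCs), the stem cells of skeletal muscle, sorted by flow cytometry from 2-month-old mice on a C57BL/6J background, with about 800 cells a library and 3 libraries a group. The 4 groups were SCs of FoxM1-cKO mice 48 h post-injury, SCs of FoxM1fl/fl mice 48 h post-injury, SCs of uninjured FoxM1-cKO mice and SCs of uninjured FoxM1fl/fl mice. All mice carried loxP-flanked FoxM1 alleles, and FoxM1-cKO mice also carried Pax7-Cre, a recombinase expressed from the promoter of the SC gene Pax7, which deletes FoxM1 in the SC lineage from development on. Injury was an injection of 1.2% BaCl2 into muscle. Replicates are called biological, yet no source says which mouse gave which library, and the p-values measure only how far these libraries spread, part of which may be technical. In such bulk libraries fewer cells of a type and less RNA per cell cannot be told apart.

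Glycolysis splits glucose into pyruvate and yields ATP without oxygen. Phosphofructokinase (Pfkm is its muscle subunit) commits the sugar to the pathway, aldolase (Aldoa) cuts it into triose phosphates and triose phosphate isomerase (Tpi1) makes these interchangeable. Gapdh, phosphoglycerate kinase (Pgk1), phosphoglycerate mutase (Pgam1, Pgam2) and enolase (Eno3) carry them on towards pyruvate, and lactate dehydrogenase (Ldha, Ldhb) turns pyruvate and lactate into each other. Several steps have a form used in most tissues and a form of adult muscle: Pgam1 against Pgam2, and Eno1 against Eno3. Ldha is the main subunit in fast muscle and Ldhb the main subunit in heart. Quiescent SCs are known for a metabolism that rests largely on fatty acid oxidation, with more glycolysis after activation, while fast myofibres hold glycolytic enzymes at very high levels.

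The genes lie on 5 autosomes and the X chromosome. On mm10, Aldoa (chr7:126795234-126800751) and Ldha (chr7:46841475-46855627) share chromosome 7, and Gapdh (chr6:125161715-125166467), Tpi1 (chr6:124810586-124814296) and Ldhb (chr6:142490249-142507957) share chromosome 6. Pgam2 (chr11:5801640-5803733) and Eno3 (chr11:70657202-70662513) share chromosome 11. Pfkm is at chr15:98092589-98132451, Pgam1 at chr19:41911923-41918660 and Pgk1 at chrX:106187100-106203699.

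The bases before the transcription start are shown for the 2 isoform pairs whose balance is compared further on, Pgam1 with Pgam2 and Ldha with Ldhb. They are the 250 bases before a RefSeq start on GRCm38.p6, 5′ to 3′ on the strand of the gene, at chr19:41911621-41911870 (plus strand) for Pgam1, chr11:5803797-5804046 (minus strand) for Pgam2, chr7:46845554-46845803 (plus strand, the first of 2 starts) for Ldha and chr6:142507958-142508207 (minus strand) for Ldhb. Capitals mark matches on either strand to the core of the hypoxia response element (ACGTG), the E-box CAGCTG that MyoD can bind, the forkhead core TAAACA and the MEF2 pattern.
Pgam1: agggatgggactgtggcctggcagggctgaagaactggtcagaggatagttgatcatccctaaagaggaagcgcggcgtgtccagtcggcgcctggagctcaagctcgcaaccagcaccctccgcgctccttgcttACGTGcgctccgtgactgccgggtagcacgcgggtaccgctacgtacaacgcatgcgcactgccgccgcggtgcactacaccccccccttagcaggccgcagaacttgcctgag
Pgam2: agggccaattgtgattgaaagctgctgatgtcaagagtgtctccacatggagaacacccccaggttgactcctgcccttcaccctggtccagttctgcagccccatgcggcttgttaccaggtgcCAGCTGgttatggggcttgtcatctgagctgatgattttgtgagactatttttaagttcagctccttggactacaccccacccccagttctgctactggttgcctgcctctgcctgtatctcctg
Ldha: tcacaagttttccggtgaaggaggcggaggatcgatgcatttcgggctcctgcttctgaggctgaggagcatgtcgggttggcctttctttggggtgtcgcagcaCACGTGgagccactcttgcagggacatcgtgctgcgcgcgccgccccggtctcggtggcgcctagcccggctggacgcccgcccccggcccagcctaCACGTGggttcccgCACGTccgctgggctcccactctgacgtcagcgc
Ldhb: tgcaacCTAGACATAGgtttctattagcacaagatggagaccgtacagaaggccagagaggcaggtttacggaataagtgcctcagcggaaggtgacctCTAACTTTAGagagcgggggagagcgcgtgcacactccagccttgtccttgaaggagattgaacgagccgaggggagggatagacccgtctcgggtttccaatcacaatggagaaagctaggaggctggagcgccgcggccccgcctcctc
The ubiquitous form Pgam1 has the hypoxia element core once and the muscle form Pgam2 has the E-box once, while the Ldha window has the hypoxia element core at 3 places, 2 of them as the palindrome CACGTG. The Ldhb window has 2 matches to the loose MEF2 pattern, which overlap no other capitals and both have G or C among their middle bases. Over all 10 genes, which have 16 such windows, ACGTG stood in 7 windows (43.8%), against 16.6% of the 32851 windows of all genes. The E-box stood in 1 of the 16 (6.25%, against 13.0% of all windows), the loose MEF2 pattern in 1 (6.25%, against 3.20%) and the forkhead core in none (12.03% of all windows). A match describes the letters only.

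Library depth, as the step size of the FPKM values gives it, was 1692998 to 2854585 reads in injured FoxM1-cKO SCs, 907553 to 1284056 in injured FoxM1fl/fl SCs, 170701 to 238173 in uninjured FoxM1-cKO SCs and 174827 to 642011 in uninjured FoxM1fl/fl SCs. At the length of the longest transcript, each testable value of the members other than Pgam1 was a whole number of reads. For Pgam1 the shortest length giving whole reads was taken, so its values are no check, and its read numbers rest on that length. In 3 of the 4 groups, 1 library looked like its group mates added in fixed proportions: FoxM1fl/fl injured 1, FoxM1-cKO uninjured 2 and FoxM1fl/fl uninjured 1 held 92.9% to 100% of the genes found in only one of the others. FoxM1-cKO uninjured 2 stood at 0.796 to 1.56 times the weighted sum for the 9 enzyme genes above 0 there, so those groups may hold fewer than 3 independent libraries. Each count of calls is therefore also given without these 3 libraries, a fit of 3856 genes by limma that called none in any comparison, with 149 to 1094 genes at an unadjusted p under 0.05. Foxm1 was listed at 3.48, 1.28 and 0.832 FPKM in injured FoxM1-cKO SCs, against 32.8, 29.4 and 42.0 FPKM in injured FoxM1fl/fl SCs. In uninjured SCs it was listed at 0 in every FoxM1-cKO library, against 5.48, 8.95 and 7.38 FPKM in FoxM1fl/fl libraries. At the gene length that fitted best, 4 of its 9 testable values were not whole reads. Of 13 SC markers in the table, 9, 9 and 8 were above 0 in injured FoxM1-cKO libraries, 8, 7 and 3 in injured FoxM1fl/fl libraries, 2, 4 and 5 in uninjured FoxM1-cKO libraries and 3, 2 and 1 in uninjured FoxM1fl/fl libraries. Itga7, Vcam1 and Cdh15 were listed at 0 in all 6 uninjured libraries.

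The levels of the 10 genes fell into unlike patterns across the groups. Uninjured FoxM1-cKO libraries had 8 or 9 of the genes above 0 and uninjured FoxM1fl/fl libraries had 5 each, while all injured libraries had 8 or 9. Summed over the 10 genes, they took 0.142%, 0.221% and 0.374% of the FPKM of injured FoxM1-cKO libraries, 0.166%, 0.196% and 0.0983% in injured FoxM1fl/fl libraries, 13.5%, 11.2% and 8.84% in uninjured FoxM1-cKO libraries and 0.102%, 0.0328% and 0.625% in uninjured FoxM1fl/fl libraries. Most of the FoxM1-cKO share in uninjured mice came from Pgam2 (13.3%, 7.89% and 1.97% of a library), which was the highest gene of all in FoxM1-cKO uninjured 2, and from Eno3.

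**Figure D1:**
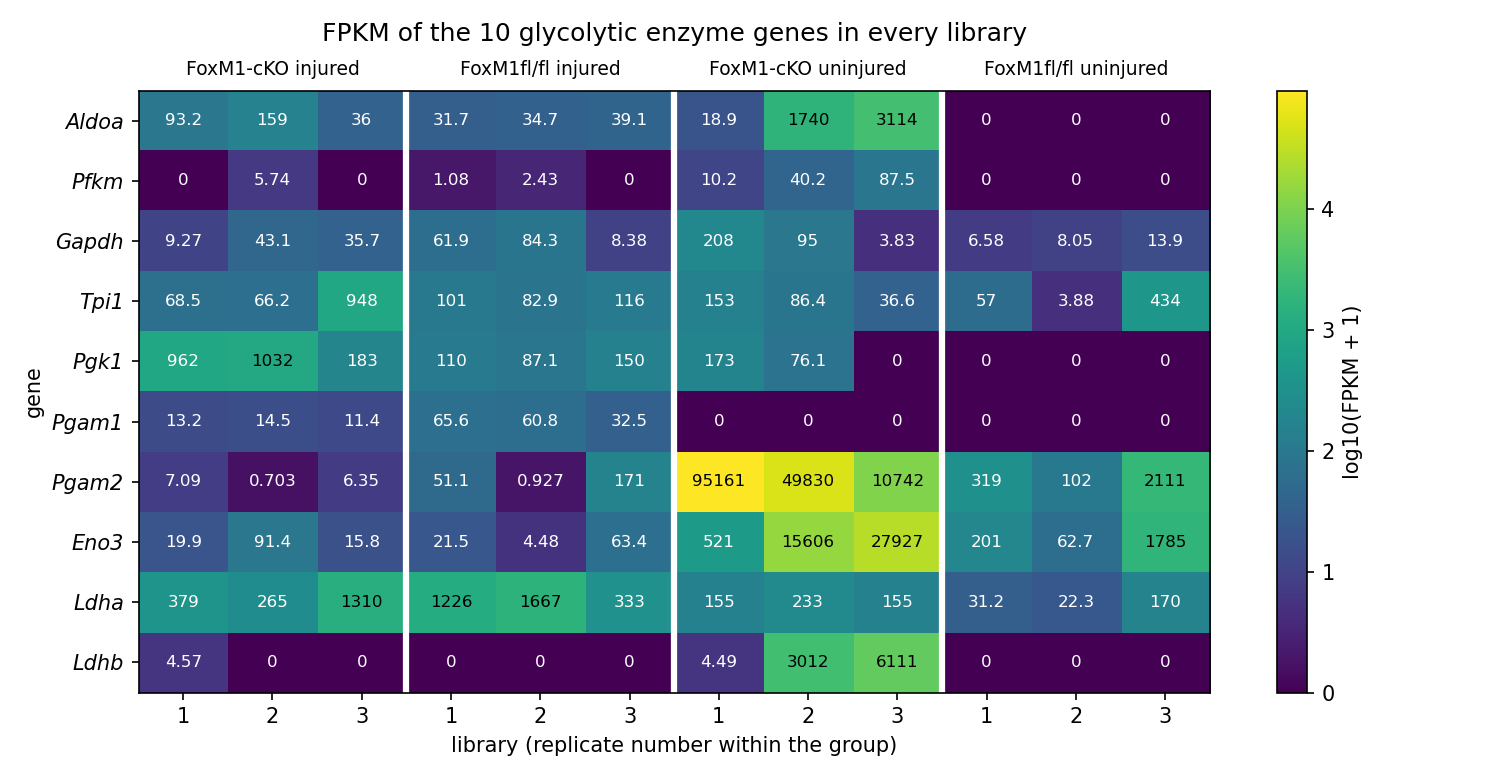
FPKM of the 10 genes (rows) in the 12 libraries (columns, by group and replicate number), with the value printed in each cell and the colour giving log10(FPKM + 1). Pgam2 and Eno3 reach 95161 and 27927 FPKM in uninjured FoxM1-cKO libraries, and Pgam1 is listed at 0 in all 6 uninjured libraries.

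In uninjured mice the glycolytic genes that differed were all higher in FoxM1-cKO SCs. Aldoa, Pfkm and Ldhb passed the test, while Pgam2, Eno3, Pgk1, Gapdh, Ldha, Tpi1 and Pgam1 did not. Thus 3 of 10 were called higher and none lower, against 0.868% of all 4956 genes called higher in this comparison and 0.666% called lower. Of the 3, Ldhb met the filter only through the FoxM1-cKO group, so its call is not independent of the filter. The median difference of the 10 was 4.50 on the log2(FPKM + 1) scale, against 0 over all genes tested. Called means an adjusted p under 0.05 from limma on log2(FPKM + 1), with 1 estimate of the spread from all 12 libraries and Benjamini-Hochberg adjustment over all genes tested.

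Aldoa, the muscle aldolase, had 18.9, 1740.0 and 3114 FPKM (5, 466 and 1149 reads) in uninjured FoxM1-cKO SCs, against a listing at 0 in all 3 FoxM1fl/fl libraries, where 1 read was worth 1.07, 1.01 and 3.69 FPKM. The groups did not overlap, though FoxM1-cKO uninjured 1 stood far below its group mates. On the log2(FPKM + 1) scale the difference was 8.90 with an SE of 1.62 (adjusted p = 0.0172 from limma). Pfkm had 10.2, 40.2 and 87.5 FPKM (5, 20 and 60 reads) in FoxM1-cKO SCs and was listed at 0 in the FoxM1fl/fl libraries. This muscle phosphofructokinase was thus low but present in every FoxM1-cKO library, with a difference of 5.10 (SE 1.08, adjusted p = 0.0305 from limma). Ldhb had 4.49, 3012 and 6111 FPKM (1, 679 and 1898 reads) in FoxM1-cKO SCs, against a listing at 0 in every FoxM1fl/fl library. Beyond this group Ldhb was above 0 only in FoxM1-cKO injured 1 (4.57 FPKM), so it met the filter only through uninjured FoxM1-cKO SCs. The value in FoxM1-cKO uninjured 1 was a single read, and the difference of 8.86 had an SE of 2.01 (adjusted p = 0.0466 from limma). Such differences from a group at 0 depend on the added 1 FPKM and are no fold changes.

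Pgam2, the muscle mutase, had the largest levels, with 95161, 49829.8 and 10741.5 FPKM in uninjured FoxM1-cKO SCs, against 319, 102 and 2111 FPKM in uninjured FoxM1fl/fl SCs. Every FoxM1-cKO library was above every FoxM1fl/fl library, but the difference of 6.49 (SE 1.68) did not pass (adjusted p = 0.0863 from limma, 1.21e-06 to 1 over the alternatives). Eno3, the muscle enolase, had 521, 15606 and 27927 FPKM in FoxM1-cKO SCs and 201, 62.7 and 1785 FPKM in FoxM1fl/fl SCs. The groups overlapped through FoxM1-cKO uninjured 1, and the difference of 4.42 (SE 1.69) had an adjusted p of 0.180 from limma, which was 0.0336 without that library (1.24e-05 to 1 over the alternatives). Of the 10 genes, 4 had groups that did not overlap, with FoxM1-cKO higher in each, against 3.69% of all genes.

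The enzymes in the middle of the pathway did not pass the test. Gapdh had 208, 95.0 and 3.83 FPKM in uninjured FoxM1-cKO SCs, against 6.58, 8.05 and 13.9 FPKM in uninjured FoxM1fl/fl SCs, with 2 libraries of the first group above and 1 below the second. Tpi1 had 153, 86.4 and 36.6 FPKM in FoxM1-cKO SCs and 57.0, 3.88 and 434 FPKM in FoxM1fl/fl SCs. Pgk1 had 173, 76.1 and 0 FPKM in FoxM1-cKO SCs and was at 0 in every FoxM1fl/fl library. The differences of these genes were 2.19 (SE 1.48) for Gapdh, 0.68 (SE 1.59) for Tpi1 and 4.57 (SE 1.65) for Pgk1, none past the threshold (adjusted p 0.172 to 1 from limma). Ldha had 155, 233 and 155 FPKM in FoxM1-cKO SCs and 31.2, 22.3 and 170.2 FPKM in FoxM1fl/fl SCs, a difference of 1.82 (SE 1.13, adjusted p = 0.464 from limma). It varied less within the FoxM1-cKO group than any other member above 0 there. Pgam1 was listed at 0 in all 6 libraries.

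**Figure D2:**
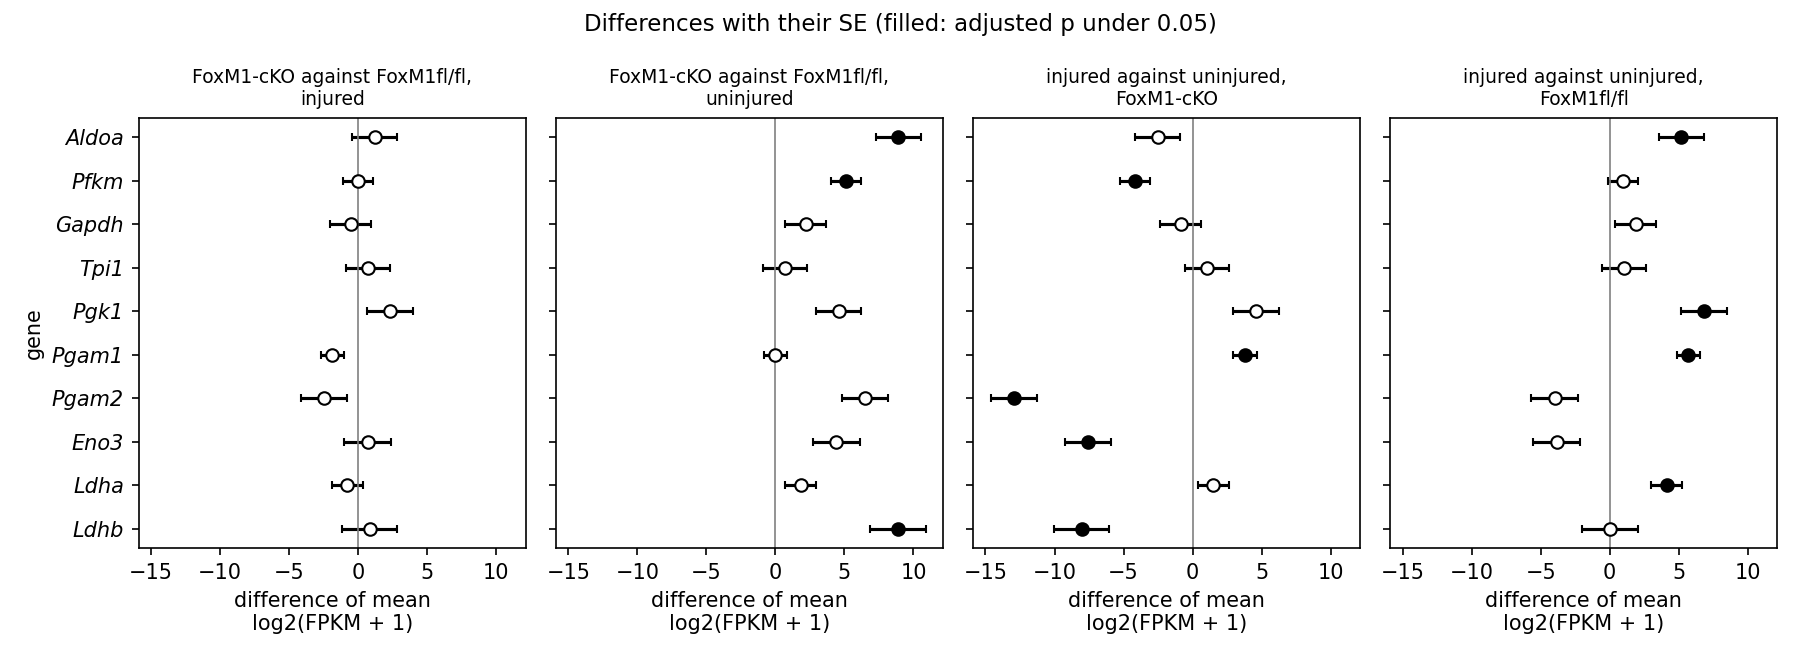
Differences of the group means on the log2(FPKM + 1) scale (x axis, points with SE) for each gene (rows) in 4 comparisons, filled where the adjusted p was under 0.05. The filled points are Aldoa, Pfkm and Ldhb for uninjured FoxM1-cKO against uninjured FoxM1fl/fl SCs, 5 genes after injury in FoxM1-cKO SCs and 4 in FoxM1fl/fl SCs, and none for FoxM1-cKO against FoxM1fl/fl in injured mice.

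The 3 calls in uninjured mice depended on the settings and on single libraries, that of Ldhb most. Aldoa was called in 19 of 24 alternatives, Pfkm in 17 of 24 and Ldhb in 6 of 23. Ldhb alone also lost its call without the variance trend (adjusted p = 0.0526 from limma). Leaving out any single injured library, none of which is in this comparison, ended it too (0.0642 to 0.0729). With every library kept, all 3 ended with a pseudocount of 5 (adjusted p 0.0661 for Aldoa, 0.0886 for Pfkm and 0.117 for Ldhb) or with no filter (0.0539, 0.0904 and 0.155). All 3 also ended without FoxM1-cKO uninjured 2 (adjusted p 0.103 for Aldoa, 0.139 for Pfkm and 0.245 for Ldhb) or without FoxM1fl/fl uninjured 1, where the differences stayed at 8.90, 5.10 and 8.86 (0.0888, 0.156 and 0.183), and at differences of 7.96, 4.97 and 7.52 without the 3 weighted-sum libraries (0.624, 0.814 and 0.849). Over all alternatives their adjusted p ranged over 5.67e-07 to 0.624 for Aldoa, 3.08e-07 to 0.814 for Pfkm and 1.33e-06 to 0.849 for Ldhb, and each kept its sign. The low ends come from array weights, whose estimation stopped before it had converged.

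Within the uninjured FoxM1-cKO group, the glycolytic genes split into opposite patterns. FoxM1-cKO uninjured 3 was higher than FoxM1-cKO uninjured 1 by 1360-fold for Ldhb, 165-fold for Aldoa, 53.6-fold for Eno3 and 8.60-fold for Pfkm. It was lower for Gapdh, Pgam2 and Tpi1, which were higher in FoxM1-cKO uninjured 1 by 54.4-fold, 8.86-fold and 4.19-fold, and Pgk1 was listed at 0 in FoxM1-cKO uninjured 3. Ldha was level (1.00-fold). FoxM1-cKO uninjured 2 stood between them for each gene but Ldha and Pgam1, as a library that follows their weighted sum would. The fold for Ldhb starts from 1 read and those for Aldoa and Pfkm from 5 reads each. Among other enzymes of the pathway, Pkm, the pyruvate kinase of muscle and most tissues, was higher in FoxM1-cKO uninjured 1, with 101, 66.6 and 8.63 FPKM over the 3 libraries, as was Gpi1, the isomerase before phosphofructokinase, with 44.0, 27.2 and 0 FPKM.

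Fast myofibre markers also differed in both directions between these libraries. Of 20 such markers in the table, none of them a glycolytic member, 8 were higher in FoxM1-cKO uninjured 3 and 10 in FoxM1-cKO uninjured 1, and 2 were at 0 in both. Myh4, the fast myosin heavy chain, was 14.2-fold and Pvalb, the calcium buffer parvalbumin, 7.56-fold higher in FoxM1-cKO uninjured 3. Ckm, the muscle creatine kinase, was 103-fold higher in FoxM1-cKO uninjured 1, and Mb, myoglobin, had 42634 FPKM there and was listed at 0 in FoxM1-cKO uninjured 3.

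**Figure D3:**
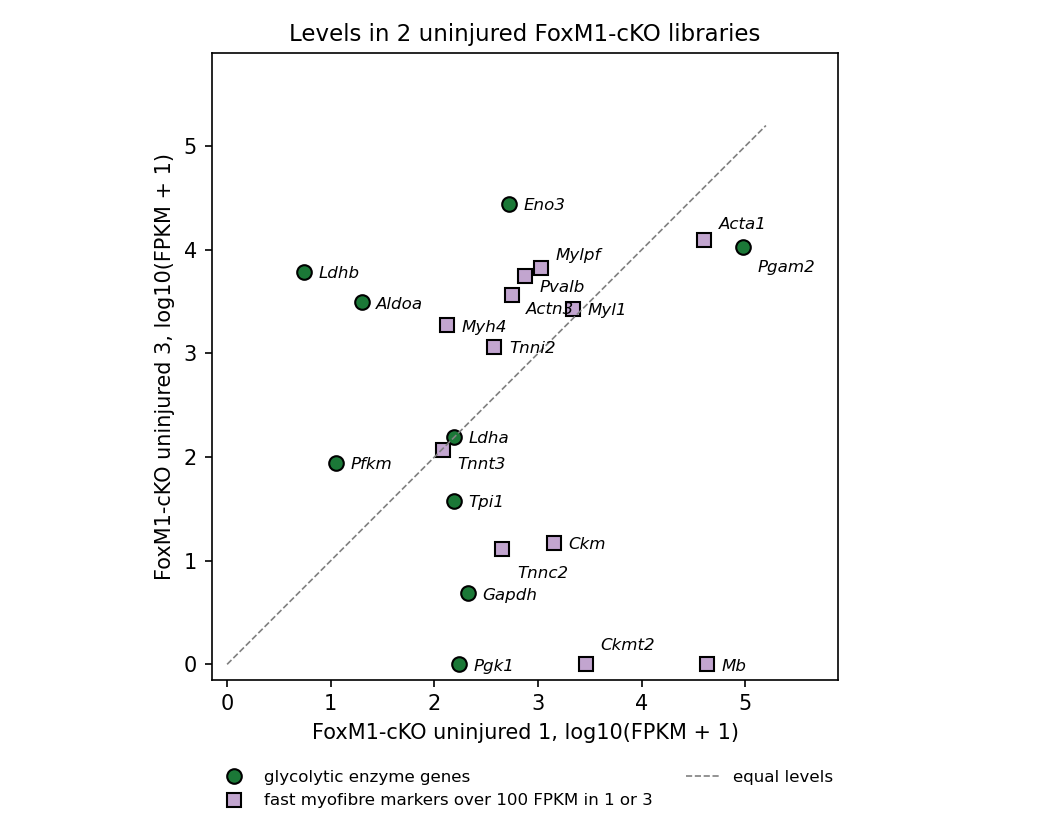
Level of the glycolytic enzyme genes (green circles, Pgam1 at 0 in both left out) and of fast myofibre markers over 100 FPKM in either library (purple squares) in FoxM1-cKO uninjured 1 (x axis) and FoxM1-cKO uninjured 3 (y axis), both as log10(FPKM + 1), with the line of equal levels. Ldhb, Aldoa, Eno3 and Pfkm lie above the line with Myh4 and Pvalb, and Pgam2, Gapdh, Tpi1 and Pgk1 lie below it with Mb and Ckm.

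The fast myofibre markers also moved with the group. Together they took 0.0770%, 0.0777% and 0.0495% of the FPKM in injured FoxM1-cKO libraries, 0.0660%, 0.0380% and 0.134% in injured FoxM1fl/fl libraries, 12.9%, 9.48% and 6.29% in uninjured FoxM1-cKO libraries and 2.03%, 1.35% and 5.80% in uninjured FoxM1fl/fl libraries. The uninjured FoxM1-cKO libraries were the highest, and 17, 17 and 13 of the 20 markers were above 0 in them, against 12, 13 and 12 in uninjured FoxM1fl/fl libraries. Casq1 was at 0 in all uninjured libraries. Acta1, the skeletal actin, had 39962, 24435 and 12497 FPKM in uninjured FoxM1-cKO SCs, against 5037, 2455 and 22045 FPKM in uninjured FoxM1fl/fl SCs. Of the 19 fast markers tested, 1 was called higher in uninjured FoxM1-cKO SCs and none lower (median difference 1.89). FoxM1fl/fl uninjured 3 had a marker share of 5.80% and held 434 FPKM of Tpi1, 2111 FPKM of Pgam2 and 1785 FPKM of Eno3. Aldoa, Pfkm and Ldhb were listed at 0 in this single library, where a listing at 0 can be a failed estimate. Of the slow myofibre markers, Tnni1 and Tnnt1 were at 0 in all uninjured libraries. The 13 SC markers took 0.183%, 0.156% and 0.118% of the FPKM in uninjured FoxM1-cKO libraries, against 0.0260%, 0.0297% and 0.00676% in uninjured FoxM1fl/fl libraries. Each FoxM1-cKO library was thus above each FoxM1fl/fl library here too. These sums rest on few genes, with 2, 4 and 5 markers above 0 in FoxM1-cKO and 3, 2 and 1 in FoxM1fl/fl libraries. Msc had 1302, 641 and 41.0 FPKM in FoxM1-cKO libraries and was at 0 in FoxM1fl/fl ones. Cxcr4 and Spry1 went the other way, at 0 in FoxM1-cKO libraries, with 51.7 and 52.6 FPKM of Cxcr4 in FoxM1fl/fl uninjured 1 and 2. The 8 fibro-adipogenic markers took 0.522%, 0.762% and 1.09% in uninjured FoxM1-cKO libraries, against 0.923%, 0.925% and 0.334% in uninjured FoxM1fl/fl libraries, with overlap. None of 7 SC and 8 fibro-adipogenic markers tested was called in uninjured mice by limma, with 3 and 2 at an unadjusted p under 0.05, as were 937 of all 4956 genes tested. The part of these markers in the result was not tested.

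**Figure D4:**
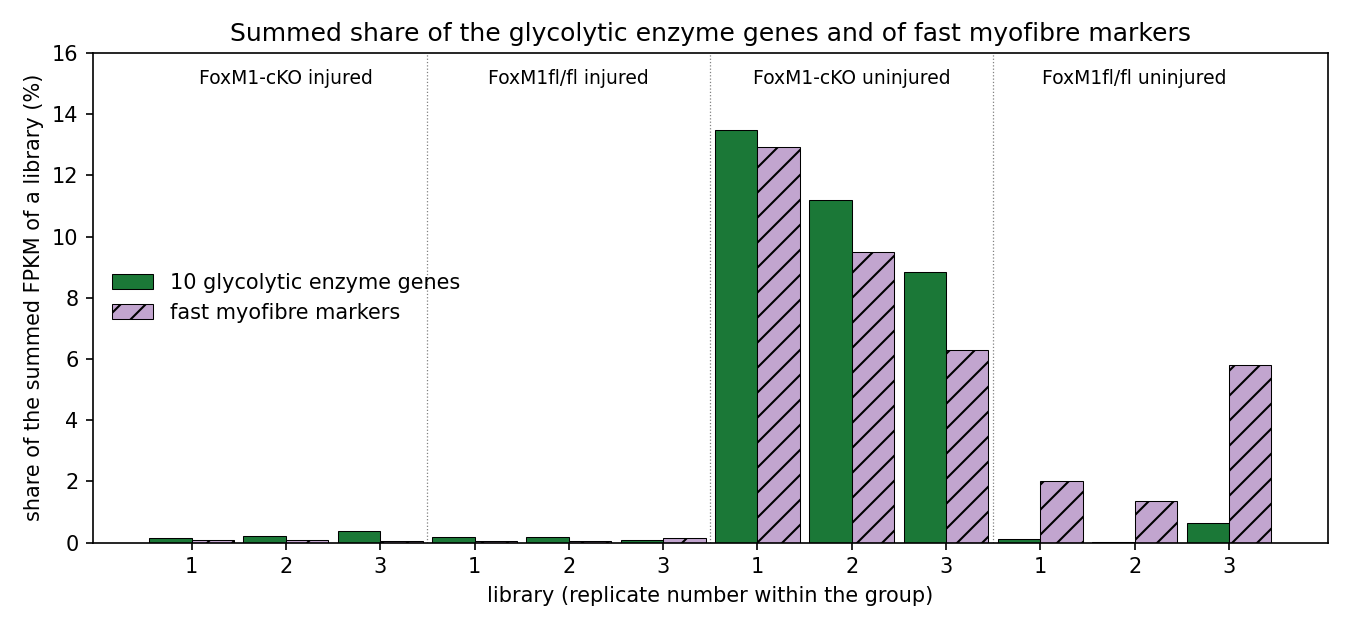
Share of the summed FPKM of each library (y axis, in percent) taken by the 10 glycolytic enzyme genes (green) and by fast myofibre markers (hatched), by group and replicate. Both shares are highest in uninjured FoxM1-cKO libraries (13.5% to 8.84% and 12.9% to 6.29%), and FoxM1fl/fl uninjured 3 has 0.625% and 5.80%.

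After injury in FoxM1fl/fl mice, 4 of the 10 genes were called higher and none lower. The higher ones were Pgk1, Pgam1, Aldoa and Ldha, against 18.8% of all genes called higher in this comparison and 1.92% called lower. The median difference of the 10 genes was 1.44, close to the 1.51 over all genes tested, and 6 of 10 did not pass. Pgk1 had 109.9, 87.1 and 149.7 FPKM in injured SCs and was listed at 0 in all uninjured libraries of this genotype (difference 6.83, SE 1.65, adjusted p = 0.0135 from limma). At its lowest injured level Pgk1 would have given 95.4, 102 and 27.8 reads in the uninjured FoxM1fl/fl libraries. Pgam1, the ubiquitous mutase, had 65.6, 60.8 and 32.5 FPKM in injured SCs and was listed at 0 in uninjured SCs (difference 5.69, SE 0.85, adjusted p = 0.00157 from limma). The lowest level of Pgam1 in any injured library was 11.4 FPKM, in FoxM1-cKO injured 3. At that level 12.5, 13.4 and 3.64 reads would have been found in the uninjured FoxM1fl/fl libraries. Both genes were thus above 0 only after injury in this genotype. Neither reached 1 FPKM in 3 uninjured libraries of the series, so both met the filter only through injured ones. Their calls are therefore not independent of the filter. Aldoa had 31.7, 34.7 and 39.1 FPKM (63, 69 and 55 reads) in injured SCs and was listed at 0 in uninjured SCs (difference 5.17, SE 1.62, adjusted p = 0.0423 from limma). Ldha had 1226, 1667 and 333 FPKM in injured SCs, against 31.2, 22.3 and 170.2 FPKM in uninjured SCs. No injured library was as low as an uninjured one, which held for 4 of the 10 genes and for 33.2% of all genes, and the difference was 4.13 (SE 1.13, adjusted p = 0.0239 from limma). Relative to the median gene the differences were 5.32 for Pgk1, 4.19 for Pgam1, 3.67 for Aldoa and 2.62 for Ldha. That median moved with the scaling: after quantile normalization it was 0.141 in this comparison and 0.0982 in FoxM1-cKO SCs, against 1.51 and 1.68 on the values as deposited.

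The muscle forms stood lower in injured FoxM1fl/fl SCs without passing the test. Pgam2 had 51.1, 0.927 and 171 FPKM in injured SCs, against 319, 102 and 2111 FPKM in uninjured SCs (difference -3.99, SE 1.68, adjusted p = 0.0911 from limma). Eno3 had 21.5, 4.48 and 63.4 FPKM in injured SCs, against 201, 62.7 and 1785 FPKM in uninjured SCs (difference -3.83, SE 1.69, adjusted p = 0.103 from limma). The groups overlapped for both, at FoxM1fl/fl injured 3 and FoxM1fl/fl uninjured 2. Both passed after median-ratio scaling, with adjusted p of 0.0228 for Pgam2 (2.33e-05 to 0.366 over the alternatives) and 0.0259 for Eno3 (1.31e-05 to 0.408). The same scaling ended the calls of Aldoa (0.0517) and Ldha (0.0852), so that 2 genes were called higher and 2 lower. Quantile normalization ended those of Aldoa (0.154), Pgk1 (0.0678) and Ldha (0.131), with Eno3 called lower (0.0423), and no filter ended those of Aldoa (0.0976) and Ldha (0.0714). Gapdh had 61.9, 84.3 and 8.38 FPKM in injured SCs, against 6.58, 8.05 and 13.9 FPKM in uninjured SCs. Tpi1 had 101, 82.9 and 116 FPKM in injured SCs, against 57.0, 3.88 and 434 FPKM in uninjured SCs, and neither was past the threshold. None of the 6 FoxM1fl/fl libraries had Ldhb above 0. Leaving out FoxM1fl/fl injured 1 left only the call of Pgam1, and without the 3 weighted-sum libraries no call was left. Over the alternatives the adjusted p ranged over 6.77e-12 to 0.164 for Pgam1, 1.93e-08 to 0.208 for Pgk1, 4.06e-10 to 0.350 for Ldha and 2.04e-07 to 0.294 for Aldoa, which lost its call without any one of the 6 FoxM1fl/fl libraries (0.0635 to 0.115).

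In FoxM1-cKO SCs, Pgam2, Eno3, Ldhb and Pfkm fell after injury and Pgam1 rose, so that 4 of 10 were called lower, against 1.15% of all genes, and 1 higher, against 23.4% of all genes. The groups did not overlap for 3 genes with injured lower (1.41% of all genes) and for 3 with injured higher (44.8% of all genes). The median difference was -1.69, against 1.68 over all genes tested. Pgam2 had 7.09, 0.703 and 6.35 FPKM (17, 1 and 11 reads) in injured FoxM1-cKO SCs, against 95161, 49829.8 and 10741.5 FPKM (13645, 7237 and 2149 reads) in uninjured FoxM1-cKO SCs. The gap between the lowest uninjured and the highest injured library was wide, and on the log2(FPKM + 1) scale Pgam2 fell by 12.96 (SE 1.68, adjusted p = 0.000795 from limma). Eno3 had 19.9, 91.4 and 15.8 FPKM in injured SCs, against 521, 15606 and 27927 FPKM in uninjured SCs, and fell by 7.58 (SE 1.69, adjusted p = 0.00737 from limma). Ldhb was listed at 4.57, 0 and 0 FPKM in injured SCs, against 4.49, 3012 and 6111 FPKM in uninjured SCs. It fell by 8.04 (SE 2.01, adjusted p = 0.0129 from limma), although FoxM1-cKO uninjured 1 lay no higher than FoxM1-cKO injured 1. Ldhb met the filter only through the uninjured libraries of this genotype. Pfkm, at 0, 5.74 and 0 FPKM in injured SCs, against 10.2, 40.2 and 87.5 FPKM in uninjured SCs, fell by 4.19 (SE 1.08, adjusted p = 0.0146 from limma). Relative to the median gene the differences were -14.64 for Pgam2, -9.72 for Ldhb, -9.26 for Eno3 and -5.86 for Pfkm.

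Pgam1 was the call in the other direction. It had 13.2, 14.5 and 11.4 FPKM in injured FoxM1-cKO SCs, the tightest values of any member in that group, and was listed at 0 in uninjured FoxM1-cKO SCs (difference 3.80, SE 0.85, adjusted p = 0.00732 from limma). At the lowest injured level Pgam1 would have given 3.56, 3.60 and 4.96 reads in the uninjured libraries. Pgam1 met the filter only through injured libraries, so this call is not independent of the filter. Pgk1 had 962, 1032 and 183 FPKM in injured SCs, against 173, 76.1 and 0 FPKM in uninjured SCs. The groups did not overlap, but the difference of 4.58 (SE 1.65) did not pass (adjusted p = 0.0592 from limma, 0.0245 to 0.313 over the alternatives). Ldha had 379, 265 and 1310.3 FPKM in injured SCs, against 155, 233 and 155 FPKM in uninjured SCs, also without overlap (difference 1.51, SE 1.13, adjusted p = 0.323 from limma). Aldoa had 93.2, 159 and 36.0 FPKM in injured SCs, against 18.9, 1740.0 and 3114 FPKM in uninjured SCs, and its adjusted p of 0.257 from limma was 0.0107 without FoxM1-cKO uninjured 1, with a difference of -4.82 (0.0107 to 0.601 over the alternatives). Gapdh and Tpi1 did not pass (adjusted p 0.671 and 0.627 from limma).

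Markers of other cell types also moved with injury. Of the 19 fast myofibre markers tested, 9 fell after injury in FoxM1-cKO SCs and none rose (median difference -4.90), against 1.15% of all genes called lower. In FoxM1fl/fl SCs 5 fell, against 1.92% of all genes, and 1 rose (median difference -1.93). The 3 slow myofibre markers in the table summed to 1.96, 0 and 0 FPKM in injured FoxM1-cKO SCs and were at 0 in uninjured ones, while in FoxM1fl/fl SCs they summed to 646, 349 and 1160 FPKM after injury, against 3.74, 4.0003 and 0 FPKM in uninjured mice. The 1 slow marker tested was called in neither genotype by limma, with an unadjusted p under 0.05 in FoxM1fl/fl SCs only. Fibro-adipogenic markers took 0.2504%, 0.491% and 0.425% of the FPKM in injured FoxM1-cKO SCs, against 0.522%, 0.762% and 1.09% in uninjured ones, and 0.0846% to 0.0849% in injured FoxM1fl/fl SCs, against 0.334% to 0.925% in uninjured ones. Of the 8 fibro-adipogenic markers tested, 1 rose and 1 fell in FoxM1-cKO SCs (23.4% and 1.15% of all genes, median difference 0.82). In FoxM1fl/fl SCs 1 rose and 0 fell (18.8% and 1.92% of all genes, median difference -0.81). The 9 macrophage markers in the table took 0.0900%, 0.00164% and 0.0150% in injured FoxM1-cKO SCs, against 0% in uninjured ones. In FoxM1fl/fl SCs they took 0.108%, 0.0608% and 0.221% after injury, against 0.251%, 0.265% and 0% in uninjured mice, where 2 of the 9 were above 0 in each of the first 2 libraries. Lyz2 and Cd14 were above 0 in the 6 injured libraries alone. Ptprc (224 and 248 FPKM) and Fcer1g (1287 and 1364 FPKM) were instead highest in FoxM1fl/fl uninjured 1 and 2. Of 5 macrophage markers tested, 1 rose in FoxM1-cKO SCs (23.4% of all genes) and 3 rose in FoxM1fl/fl SCs (18.8% of all genes). The part of these markers in the results was not tested. Without the 3 weighted-sum libraries the differences of Pgam2, Eno3, Ldhb and Pfkm were -12.74, -6.90, -6.69 and -4.06 and none was called (adjusted p 0.0516, 0.0988, 0.110 and 0.121 from limma). The fall of Ldhb also lost its call without FoxM1-cKO uninjured 2 (0.0588), and the rise of Pgam1 lost its call with a pseudocount of 5 (0.0557) or after quantile normalization (0.462). The lowest adjusted p over the alternatives was 0.000302 for Pgam2, 0.00409 for Eno3, 0.000397 for Ldhb, 0.00508 for Pfkm and 0.000677 for Pgam1.

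In injured mice none of the 10 genes passed the limma test between FoxM1-cKO and FoxM1fl/fl SCs, where 7.81% of all genes were called. An unadjusted p under 0.05 was found for 1145 of the 4956 genes and for 1 of the 10. That gene was Pgam1, with 13.2, 14.5 and 11.4 FPKM in FoxM1-cKO SCs, against 65.6, 60.8 and 32.5 FPKM in FoxM1fl/fl SCs. Each FoxM1-cKO library was below each FoxM1fl/fl library, as in 5.87% of all genes, and the difference was -1.89 (SE 0.85, adjusted p = 0.202 from limma, 0.0243 to 0.716 over the alternatives). Pgk1 was the reverse, with 962, 1032 and 183 FPKM in FoxM1-cKO SCs, against 109.9, 87.1 and 149.7 FPKM in FoxM1fl/fl SCs. Its groups did not overlap either, as in 17.2% of all genes with FoxM1-cKO higher, and the difference was 2.32 (SE 1.65, adjusted p = 0.428 from limma). Pgk1 and Pgam1 act one after the other. For the other 8 genes the groups overlapped, with differences from -2.47 for Pgam2 to 1.19 for Aldoa and adjusted p of 0.406 to 0.996 from limma. The median difference of the 10 genes was 0.33, close to the 0.32 over all genes tested. Of 8 fibro-adipogenic markers tested, 2 were called higher in injured FoxM1-cKO SCs and 0 lower. For 5 of the 8 the groups did not overlap with FoxM1-cKO higher, against 17.2% of all genes. Of 5 macrophage markers tested, 1 was called lower and 0 higher. The part of these markers in the comparison was not tested.

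The effect of FoxM1 loss was also tested for a difference between injured and uninjured mice, as an interaction in the same fit. None of the 10 genes passed in limma, where 1.09% of all genes were called. An unadjusted p under 0.05 was found for 1076 of the 4956 genes and for 4 of the 10. These were Pgam2 (-8.96, SE 2.37, adjusted p = 0.0655), Pfkm (-5.13, SE 1.52, adjusted p = 0.0880), Aldoa (-7.71, SE 2.29, adjusted p = 0.0882) and Ldhb (-8.04, SE 2.85, adjusted p = 0.136). The difference of FoxM1-cKO from FoxM1fl/fl was -2.47 in injured and 6.49 in uninjured mice for Pgam2, -0.03 and 5.10 for Pfkm, 1.19 and 8.90 for Aldoa and 0.83 and 8.86 for Ldhb. Pgam2 passed with the stricter filter (0.0472), without FoxM1fl/fl uninjured 3 (0.0257) or without FoxM1fl/fl injured 2 (0.0318). Aldoa passed with a pseudocount of 0.1 (0.0261) or without FoxM1-cKO uninjured 1 (0.00522), Ldhb passed without that library (0.00361), and Pfkm passed without FoxM1fl/fl injured 3 (0.0482). With array weights all 4 passed, along with Pgam1, Gapdh, Eno3 and Ldha (0.00103 to 0.0499 over the 8). Over the alternatives the adjusted p reached 0.709 for each of the 4, with lows of 0.00103 for Pgam2, 0.002003 for Pfkm, 0.00522 for Aldoa and 0.00361 for Ldhb, and each kept its sign.

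The isoform pairs were compared as shares within a library, which no scaling between libraries can move. Pgam2 gave 34.9%, 4.62% and 35.8% of the summed Pgam1 and Pgam2 FPKM in injured FoxM1-cKO SCs and 43.8%, 1.50% and 84.0% in injured FoxM1fl/fl SCs. In uninjured SCs of both genotypes it gave 100% in every library, since Pgam1 was listed at 0. No injured library reached the uninjured share. Injured minus uninjured means differed by -74.9 percentage points in FoxM1-cKO SCs and -56.9 in FoxM1fl/fl SCs, each with p = 0.1 in a two-sided exact permutation test (adjusted p = 0.2 over 8 comparisons of shares), the smallest that 3 against 3 libraries allow, so no share could pass the threshold. Between injured FoxM1-cKO and FoxM1fl/fl SCs the share differed by -18.0 percentage points (exact permutation p = 0.5, adjusted p = 0.8). Of the windows printed for this pair, the one before the muscle form alone has the E-box, and no test links the letters to the levels.

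Eno3 gave a like picture against Eno1, the enolase of most tissues, a pair set up after the values were seen. Its share of the summed FPKM was 28.7%, 67.8% and 22.5% in injured FoxM1-cKO SCs, 15.3%, 3.20% and 46.5% in injured FoxM1fl/fl SCs and 100% in every uninjured library. Eno1 itself had 49.4, 43.4 and 54.5 FPKM in injured FoxM1-cKO SCs, 119, 136 and 72.8 FPKM in injured FoxM1fl/fl SCs. In all 6 uninjured libraries it was listed at 0. At its lowest injured level Eno1 would have given 15.02 to 56.5 reads there. Ldhb behaved otherwise: it gave 2.82%, 92.8% and 97.5% of the summed Ldha and Ldhb FPKM in uninjured FoxM1-cKO SCs, against 0% in every uninjured FoxM1fl/fl library (exact permutation p = 0.1, adjusted p = 0.2). After injury its share was 1.19%, 0% and 0% in FoxM1-cKO SCs and 0% in every FoxM1fl/fl library. The heart-type subunit was thus the main form in 2 libraries of the series, of which FoxM1-cKO uninjured 2 follows a sum that includes FoxM1-cKO uninjured 3.

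**Figure D5:**
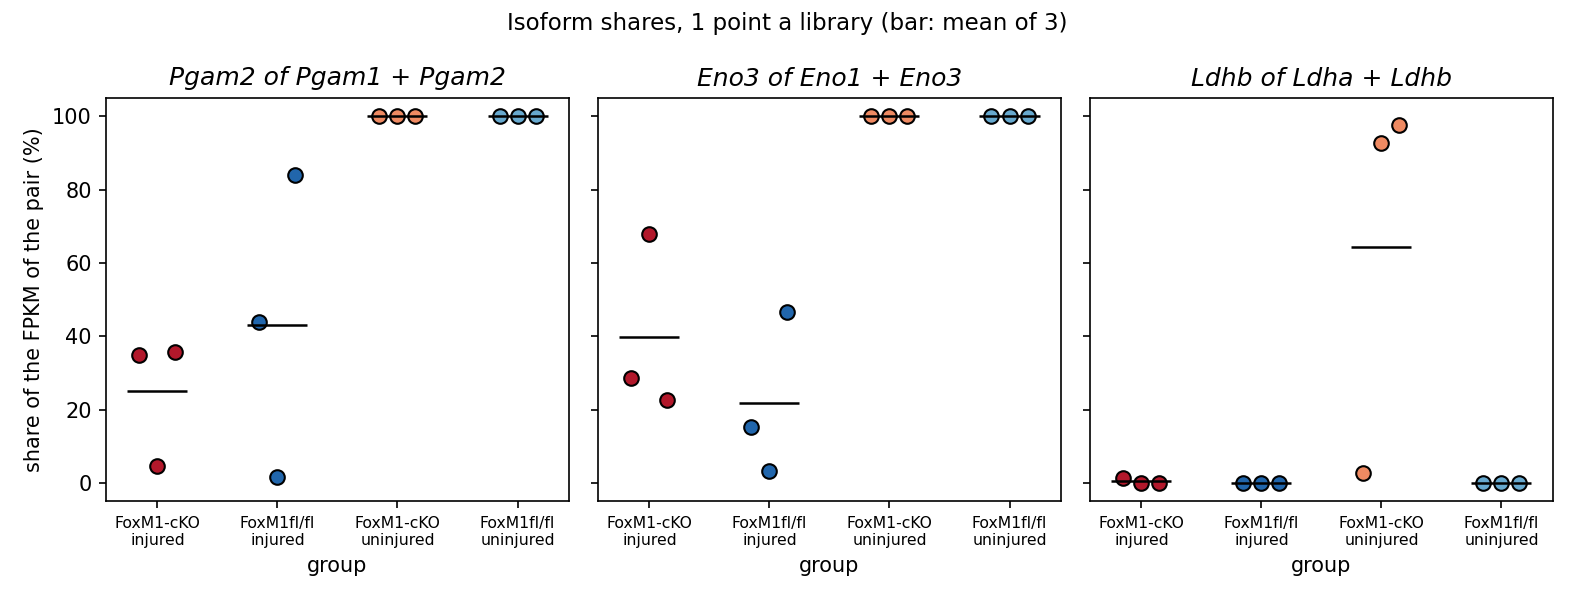
Share of Pgam2, Eno3 and Ldhb in the FPKM of their isoform pair (y axis, in percent) by group, with 1 point a library and a bar at the mean of 3. Pgam2 and Eno3 are at 100% in all 6 uninjured libraries and lower in all 6 injured ones, while Ldhb exceeds 3% only in FoxM1-cKO uninjured 2 and 3.

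Few of the other genes of the pathway could be tested. Of 17 further glycolytic enzyme genes, 5 passed the filter (Hk2, Gpi1, Pfkl, Eno1 and Pkm), and limma called none in either comparison of FoxM1-cKO with FoxM1fl/fl SCs, with 0 at an unadjusted p under 0.05. Eno1 was called higher after injury in FoxM1-cKO SCs (difference 5.64, adjusted p = 0.00146) and in FoxM1fl/fl SCs (6.74, adjusted p = 0.00117), the others in neither. Eno1 met the filter only through injured libraries, so these calls are not independent of it. Pkm had 75.9, 62.7 and 10.6 FPKM in injured FoxM1-cKO SCs, against 7.38, 5.76 and 7.70 FPKM in injured FoxM1fl/fl SCs. Gpi1 had 39.4, 14.97 and 48.6 FPKM in injured FoxM1-cKO SCs, against 7.81, 11.5 and 3.10 FPKM in injured FoxM1fl/fl SCs. Neither group pair overlapped, but neither gene passed (adjusted p 0.4202 for Pkm and 0.3999 for Gpi1 from limma). Thus 2 of the 5 had groups without overlap and FoxM1-cKO higher, against 17.2% of all genes. For Eno1, 1 of the 5, FoxM1-cKO was lower without overlap, against 5.87% of all genes. Hk2, the insulin-regulated hexokinase of muscle, had 1.06, 6.29 and 10.7 FPKM in uninjured FoxM1-cKO SCs, against 0.604, 1.41 and 0 FPKM in uninjured FoxM1fl/fl SCs.

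The branches around glycolysis were likewise called after injury only. Of 10 tested genes of glucose and lactate transport and pyruvate entry, 2 rose after injury in each genotype, near the 23.4% of all genes called higher in FoxM1-cKO SCs and the 18.8% in FoxM1fl/fl SCs. Slc2a1, the glucose transporter GLUT1, rose in both (differences 4.71 in FoxM1-cKO SCs and 3.77 in FoxM1fl/fl SCs). It was listed at 0 in all uninjured libraries, so it met the filter only through injured ones. Of 6 tested genes of glycolysis regulation and the pentose phosphate branch, 3 rose in FoxM1-cKO SCs and 2 in FoxM1fl/fl SCs, against the same shares of all genes. Taldo1, the transaldolase, had 431, 95.0 and 104 FPKM in injured FoxM1-cKO SCs and 843, 1202 and 241 FPKM in injured FoxM1fl/fl SCs, against at most 6.17 FPKM in any uninjured library. Of 5 tested genes of glycogen metabolism, Phka1, a phosphorylase kinase subunit, fell in FoxM1fl/fl SCs (difference -5.03, adjusted p = 0.0414 from limma). Its uninjured FoxM1fl/fl values were 181, 190 and 0 FPKM, so the call rests on the pair of libraries of which one follows a weighted sum. A further list held targets of hypoxia-inducible factor outside glycolysis and Hif1a, a gene of the factor itself. Of its 9 tested genes, 3 rose in FoxM1-cKO SCs (23.4% of all genes) and 5 in FoxM1fl/fl SCs (18.8% of all genes). Among them were P4ha2, a collagen prolyl hydroxylase, and Hif1a in both. Neither P4ha2 nor Hif1a reached 1 FPKM in an uninjured library, so they met the filter only through injured ones. None of these lists had a called gene in FoxM1-cKO against FoxM1fl/fl SCs, in either condition, by limma. Before adjustment, 2 glycogen genes and 1 gene of the hypoxia list in uninjured mice and 3 genes of the hypoxia list after injury were under 0.05. So were 937 of all 4956 genes in uninjured and 1145 in injured mice.

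Some genes outside the pathway had levels much like the mean pattern of the 10. With each gene standardised over the 12 libraries, the 8 nearest to the mean of the members were Klf9, Hspa1b, Rps4x, Bzw2, Wdr89, Ccn2, Gm9616 and Plk2, at root mean square distances of 0.504 to 0.580. The members themselves lay at 0.610 (Aldoa) to 1.01 (Pgam1) from their mean, so no member was as near as these genes. Klf9, a zinc finger transcription factor, had 33.6, 63.2 and 79.7 FPKM in injured FoxM1-cKO SCs, 39.9, 60.1 and 26.3 FPKM in FoxM1fl/fl SCs after injury, 117, 179 and 217 FPKM in uninjured FoxM1-cKO SCs and 2.04, 1.43 and 12.3 FPKM in uninjured FoxM1fl/fl SCs.

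Reads of Gapdh, Pgk1, Pgam1 and Tpi1 could be split with near-identical processed copies. Copies were looked for only by symbols built on the name of a member, so copies under other symbols were not searched. Of 19 annotated copies found this way, 6 were in the table. The largest values were 37.3 FPKM of Pgk1-ps3 in FoxM1-cKO injured 1, beside 962 FPKM of Pgk1, and 15.3 FPKM of Pgam1-ps2 in FoxM1fl/fl injured 2, beside 60.8 FPKM of Pgam1. Pgam1-ps2 had 5.10 FPKM in FoxM1fl/fl injured 1 and was listed at 0 in the other 10 libraries. As far as this copy goes, the level of Pgam1 is less certain in FoxM1fl/fl injured 1 and 2 than elsewhere. Gapdh-ps14 had 5.85 FPKM in FoxM1-cKO uninjured 1, beside 208 FPKM of Gapdh. Aldoa, Pfkm, Pgam2, Eno3, Ldha and Ldhb had no copy with such a symbol in the table.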

How the data were processed

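RNA of sorted SCs was sequenced in 12 libraries, 3 a group, from small cell numbers. According to the labels and the methods, the authors aligned reads to mm10 with Bowtie 0.12.9 and computed the deposited FPKM values with Cufflinks 2.1.1. Read counts were not used here, so the count test of the methods gave way to limma.

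FPKM values were analysed as log2(FPKM + 1) with limma 3.58.1 (R 4.3.3) with a trended variance, after a filter of at least 1 FPKM in at least 3 of 12 libraries, with 4 group means in 1 fit and Benjamini-Hochberg adjustment over 4956 genes. The fits were tested on simulated data. Isoform shares were compared by two-sided exact permutation tests. Tables used Python 3.11.15 (pandas 2.3.3, numpy 2.4.6, scipy 1.17.1) and figures matplotlib 3.10.9. Gene positions came from the GENCODE annotation, where 13744 of 13775 IDs matched.

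Whole multiples of the value of 1 read, at the length of the longest transcript, gave relative depth: 95.0% of 32906 low values came out whole, within 0.02 read plus 0.1%. Depths of 170701 to 238173 reads in uninjured FoxM1-cKO libraries and FoxM1fl/fl uninjured 3 make a value of a few FPKM a matter of single reads. A gene listed at 0 can be a failed estimate, since genes that every cell uses were at 0 too.

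All 10 members were named with their values. Of each further pathway list, genes called in a comparison were named (up to 4 by p, where the higher group averaged 5 FPKM or more), or else the 2 with the smallest p, and the 8 genes nearest to the members' mean pattern. Single cell type markers were named after their values were seen. The members and lists were chosen with earlier results of these data known. Alternatives covered the pseudocount, filter, scaling, variance model, replicate block and leaving out libraries.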

Additional observations from a re-analysis of the deposited data

How the results depend on the processing

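Of all genes tested, 76 were called between uninjured FoxM1-cKO and FoxM1fl/fl SCs, 387 between injured ones, 54 for the difference of these effects, 1029 after injury in FoxM1fl/fl SCs and 1215 after injury in FoxM1-cKO SCs. In that order of comparisons, a pseudocount of 5 gave 29 (uninjured), 0 (difference), 527 and 741 (injury), and one of 0.1 gave 158 (uninjured) and 308 (difference). With no filter the counts were 24, 93, 0, 431 and 601, and with at least 5 FPKM in 3 libraries 221 in injured mice and 182 for the difference. Median-ratio scaling, set by 154 genes, gave 115 in uninjured mice (39 higher and 76 lower, against 43 and 33) and 764 after injury in FoxM1-cKO SCs. Quantile normalization gave 145, 137 (66 higher and 71 lower, against 255 and 132), 0, 340 (172 and 168, against 934 and 95) and 167 (100 and 67, against 1158 and 57). Without the variance trend the difference had 146, and array weights, whose estimation stopped before it had converged, gave 2152, 1220, 2019 and 4221 in the first 4 comparisons. Fitting only the groups compared gave 143 in uninjured and 6 in injured mice. Without the 3 libraries that resemble sums, 0 were called in each of the 5 comparisons, with 149, 438, 230, 612 and 1094 genes at an unadjusted p under 0.05.

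Replicate numbers were shared across groups, and deviations of same-numbered libraries from their group means correlated at only -0.0316 to 0.0545. With 3 libraries a group this cannot decide whether the numbers pair the samples. The main fit did not pair them. With the replicate number as a block, limma called 51, 313, 0, 959 and 1139 genes, and Pfkm (adjusted p = 0.0531, 3.08e-07 to 0.814 over the alternatives) and Ldhb (0.0679, 1.33e-06 to 0.849) lost their calls in uninjured mice.

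Leaving out 1 library at a time gave 10 to 375, 56 to 662, 0 to 382, 323 to 1416 and 618 to 1409 calls. Under these, the Ldhb share differed by 47.8 to 95.2 percentage points in uninjured mice, 0 to 0.595 in injured mice and -94.8 to -47.4 after injury in FoxM1-cKO SCs. The Pgam2 share differed by -38.8 to 2.48 in injured mice, -80.2 to -64.6 after injury in FoxM1-cKO SCs and -77.4 to -36.1 in FoxM1fl/fl SCs. With 1 FPKM added, the Ldhb share after injury in FoxM1fl/fl SCs differed by -2.42 and the Pgam2 share in uninjured mice by 0.436, both 0 otherwise.

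No called member changed its sign under any alternative. Of the others, Tpi1 turned to -0.62 (uninjured) and -0.52 (injury, FoxM1fl/fl) with median-ratio scaling, to -1.08 and -0.87 (injury, FoxM1fl/fl and FoxM1-cKO) with quantile normalization, and to -0.054 and -0.099 (difference) with a pseudocount of 0.1 and array weights. Quantile normalization also turned Gapdh to -0.73 and Pfkm to -0.059 (injury, FoxM1fl/fl), and Pfkm in injured mice was 0.083 with a pseudocount of 5 and 0.028 without the 3 libraries. Leaving out 1 library, Tpi1 ranged over -0.995 to 2.24 (uninjured), -0.55 to 1.36 (injured), -1.53 to 1.71 (difference), -0.67 to 2.57 (injury, FoxM1fl/fl) and -0.22 to 1.69 (injury, FoxM1-cKO). Pfkm ranged over -0.95 to 0.43, Gapdh over -1.52 to 0.12 and Eno3 over -0.25 to 1.52 (injured), and Gapdh over -2.47 to 0.25 (injury, FoxM1-cKO). The causes of these shifts were not tested. Depth limits uninjured FoxM1-cKO libraries and FoxM1fl/fl uninjured 3 most, where 1 read of Aldoa was worth 2.71 to 3.78 FPKM.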
